A study of Mus musculus with 6 samples.

Results

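The genes described here encode mitochondrial ribosomal proteins. They were taken by symbol, as every feature whose name starts with Mrpl or Mrps followed by a digit, which gave 77 of the 24346 features in each table, 48 Mrpl and 29 Mrps. The RNA came from dendritic cells of the mouse spleen, which take up antigens and present them to T cells, sorted for CD11c by autoMACS (magnetic beads). IL-33, an alarmin cytokine related to IL-1, was given in 3 libraries, and PBS, the buffer used as control, in the other 3. The labels used here state no genotype, strain, age, dose, time or route, and nothing says that the libraries of a group are from separate animals. Each p-value thus reflects how much these libraries vary, and that variation may be technical. The question asked here is how the transcripts of the mitoribosome differed between IL-33 and PBS, and whether the large and the small subunit differed alike.

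The mitoribosome translates the few proteins that mitochondrial DNA still encodes, all of them subunits of the respiratory chain complexes and the ATP synthase. Its ribosomal RNAs are made in the mitochondrion, but its proteins are encoded in the nucleus, made in the cytosol and imported. The large subunit joins amino acids and holds the exit tunnel, and the small subunit decodes the messenger RNA. Many of the proteins have a counterpart in the bacterial ribosome, others were added during the evolution of mitochondria, and symbols do not always tell the place. Mrps18a and Mrps30 sit in the large subunit, while Mrps36 is now known as a subunit of the 2-oxoglutarate dehydrogenase complex of the citric acid cycle. Transcripts encoded by mitochondrial DNA were not analysed here.

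Values are FPKM, fragments scaled to transcript length and to mapped fragments, as the authors deposited them. Such tables hold no counts, and the depth read from the steps between low values ranged from 0.946 to 1.22 relative to PBS replicate 1, without separating the groups. The sum of FPKM over all genes did separate them, at 778391 to 841884 in the IL-33 libraries and 614522 to 641412 in the PBS libraries. Tests used limma on log2(FPKM + 1) over the 11518 genes that reached 1 FPKM in 3 or more libraries, with Benjamini-Hochberg adjustment over all of them and a threshold of 0.05. A log2 change is the IL-33 mean less the PBS mean on that scale, with SE for its standard error; a level given as a mean has its SD (n = 3 per group). The 77 members were above 1 FPKM in every library, so that none was lost to the filter.

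Transcripts of the mitoribosome were more abundant with IL-33. Of the 77 members 57 rose, 0 fell and 20 did not pass the threshold, where 28.0% of all tested genes were higher and 25.5% lower. At an unadjusted p of 0.05, limma gave 61 members higher and 0 lower. The median log2 change of the members was 0.40, against 0.01 over all tested genes, and only Mrps6 and Mrpl54 reached a doubling. The 3 IL-33 libraries lay all above the 3 PBS libraries for 63 members, and all below for 1 (Mrps25), where these shares were 32.7% and 30.9% of all tested genes. Summed over the members, FPKM reached 3627, 3378 and 3219 in IL-33 replicates 1, 2 and 3, against 2313, 2358 and 2531 in PBS replicates 1, 2 and 3. As a share of each library's own total these sums were 0.431%, 0.434% and 0.411% with IL-33, against 0.376%, 0.368% and 0.395% with PBS, so that the groups stayed apart on that scale too.

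**Figure D1:**
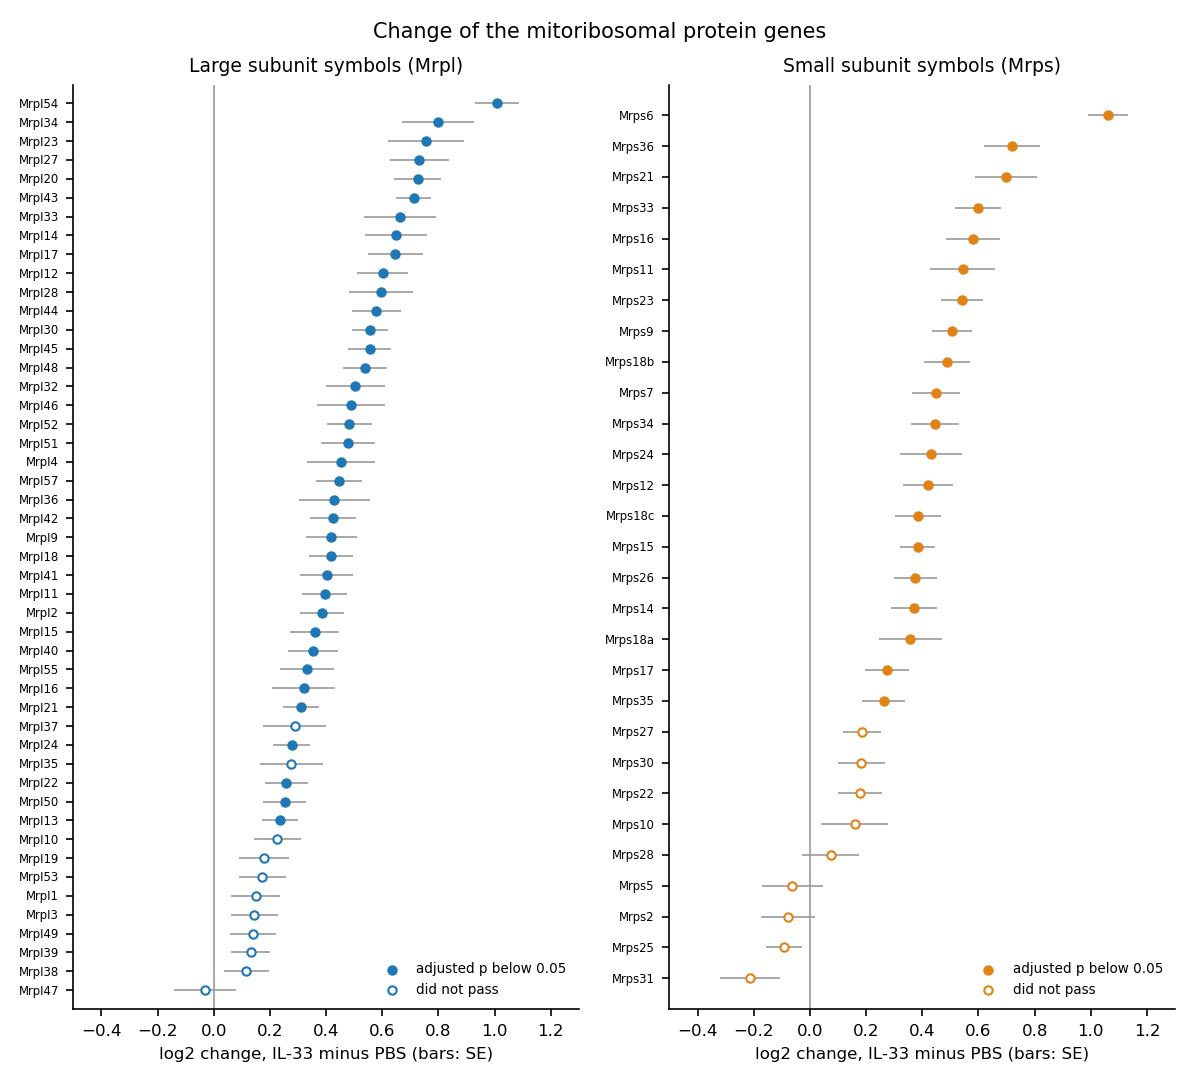
Log2 change of each member (log2 of FPKM + 1, IL-33 minus PBS), with Mrpl symbols on the left and Mrps symbols on the right; bars are the SE from limma (3 libraries per group), and filled points passed an adjusted p of 0.05. The 57 filled points are all to the right of 0, and Mrps6 and Mrpl54 stand at the top of their panels.

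The size of the change depended on how libraries were scaled. With FPKM rescaled to equal library totals, 20 members were higher (background 11.0%) and 5 lower (background 50.9%). The median change was then 0.09 for the members and -0.29 for all genes, a gap of the same order as the one seen as deposited. The 5 lower members were Mrpl47, Mrps2, Mrps5, Mrps25 and Mrps31, none of which passed as deposited. The 20 higher ones were Mrpl14, Mrps21 and the 18 members listed at the end of the report, and the other members that rose as deposited lost their call with equal totals. Scaling by the median ratio of genes gave 57 members higher and 0 lower. This scaling changed the values little, as the median change of all genes was 0.0096 as deposited and -0.001 with it.

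Transcript length went with the change across the whole table. Among tested genes whose longest annotated transcript had up to 1500 bases the median log2 change was 0.35, against 0.16 for over 1500 to 3000 bases and -0.14 for over 3000 bases. The members are short, with a median of 1849 bases against 3245 for all tested genes with a length. In the same 3 classes of length, the members had medians of 0.49 (34 genes), 0.37 (21 genes) and 0.27 (22 genes). The members' median thus stood above that of all tested genes in each class, and by the most among the longest. After smooth trends with length and GC content were removed from each library, 36 members were higher (background 24.4%) and 2 lower (background 21.1%, Mrps28 and Mrps31), with a median change of 0.23. With the length and GC content of the median coding transcript in place of the longest, which was chosen after seeing the data, 41 were higher (background 26.1%) and 0 lower (background 22.0%), with a median of 0.26. Across the 77 genes the change correlated with log2 length at a Pearson r of -0.42 (Spearman rho -0.40) and with the mean level at 0.50 (rho 0.54). These genes share the same 6 libraries and are not independent replicates.

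**Figure D2:**
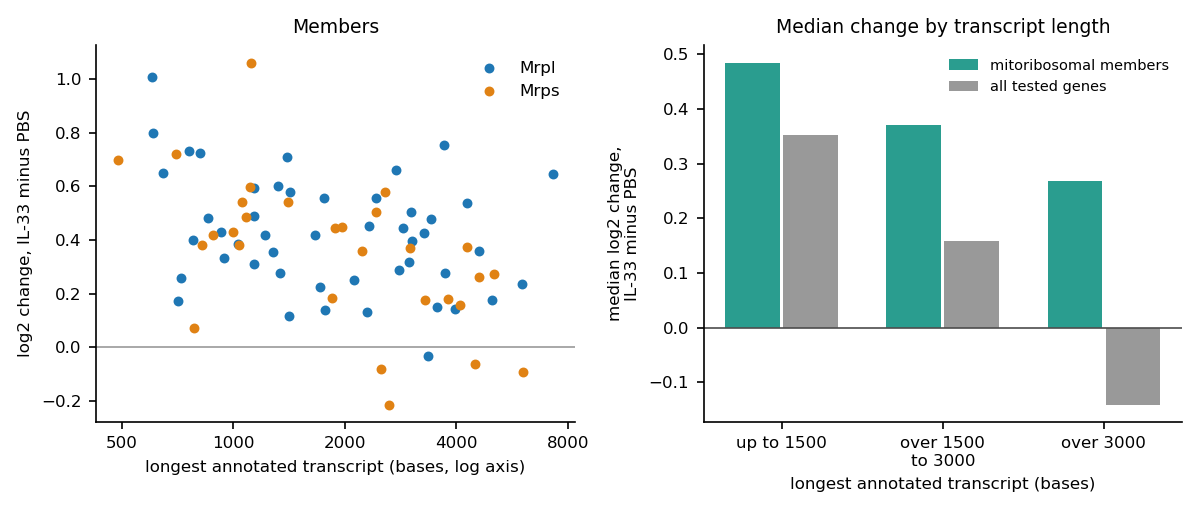
Left, log2 change (IL-33 minus PBS) of each member against the length of its longest annotated transcript, on a log axis. Right, the median log2 change of the mitoribosomal members and of all tested genes in 3 classes of length; the members' medians of 0.49, 0.37 and 0.27 lie above the 0.35, 0.16 and -0.14 of all tested genes.

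Genes of both subunits rose. Of the 48 Mrpl genes 37 rose and 0 fell (40 and 0 at an unadjusted p of 0.05 in limma), with a median log2 change of 0.42. Of the 29 Mrps genes 20 rose and 0 fell (21 and 0 unadjusted), with a median of 0.38. The mean log2(FPKM + 1) of Mrpl minus that of Mrps genes was 0.057, 0.085 and 0.091 in IL-33 replicates 1, 2 and 3, against -0.020, 0.007 and 0.032 in PBS replicates 1, 2 and 3. The groups did not overlap, and the Mrpl genes' mean change exceeded that of the Mrps genes by 0.07, a small amount beside the change of either subunit. It was 0.07 with genes placed by structure, where Mrps18a and Mrps30 count as large and Mrps36 is left out. The ratio of summed FPKM, Mrpl over Mrps, did overlap, at 1.86, 1.85 and 1.92 with IL-33 and 1.83, 1.81 and 1.88 with PBS. No test was made on these scores, since members are not replicates.

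As deposited, most genes rose both among proteins with a bacterial counterpart and among mitochondria-specific proteins, with a smaller share among the latter in each subunit. In the large subunit 24 of 30 genes with a bacterial counterpart rose (median log2 change 0.41), and 14 of 20 mitochondria-specific genes rose (median 0.41). In the small subunit these counts were 12 of 16 (median 0.40) and 6 of 10 (median 0.32). None of these 4 classes had a gene that fell, with 0 lower in limma also at an unadjusted p of 0.05. With equal totals, in the same order, 9, 5, 3 and 2 genes were higher (background 11.0%) and 1, 0, 2 and 2 lower (background 50.9%). After correction for length and GC content by the longest transcript, 14, 9, 6 and 6 were higher (background 24.4%). Under that correction 0, 0, 1 and 1 were lower (background 21.1%). In the small subunit the smaller share of mitochondria-specific genes was thus not seen with equal totals or with this correction.

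Mrps6 rose most. It encodes the counterpart of bacterial protein S6, which pairs with S18 on the platform of the small subunit, and it spans bases 92058270 to 92112227 of chromosome 16 (plus strand, mm10). It stood at 42.3, 39.6 and 38.5 FPKM in the IL-33 libraries, against 17.6, 18.8 and 19.8 FPKM in the PBS libraries. Every IL-33 library lay above every PBS library, with a log2 change of 1.06 (SE 0.07, limma adjusted p = 0.000161). Over the alternatives its limma adjusted p was at least 5.64e-05 and at most 0.00197. Slc5a3, an inositol transporter gene, and Gm49711 overlap Mrps6 on the same strand, so that fragments of the shared part may have been given to any of these genes. Slc5a3 was listed at 0.928, 0.865 and 1.06 FPKM with IL-33 and 0.796, 0.914 and 0.756 FPKM with PBS, below Mrps6 in both groups. FPKM is scaled to length, and the longest annotated transcripts have 10913 bases for Slc5a3 and 1115 for Mrps6. These values thus do not compare numbers of fragments. Mrps18c, the S18 counterpart, averaged 96.6 ± 6.21 FPKM with IL-33 and 73.9 ± 5.49 FPKM with PBS (log2 change 0.38, SE 0.08, limma adjusted p = 0.00672). The window around the start of Mrps6 is printed because this gene changed most (RefSeq, GRCm38.p6, chr16:92058086-92058385, plus strand, 250 bases before to 50 bases after the start), and it held none of the 3 motifs searched below.
Mrps6: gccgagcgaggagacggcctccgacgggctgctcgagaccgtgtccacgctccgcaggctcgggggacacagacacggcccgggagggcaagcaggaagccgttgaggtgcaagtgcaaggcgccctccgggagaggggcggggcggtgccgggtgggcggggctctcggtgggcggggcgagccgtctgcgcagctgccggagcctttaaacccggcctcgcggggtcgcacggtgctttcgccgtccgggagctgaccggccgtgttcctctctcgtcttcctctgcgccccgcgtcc

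Mrpl54, a mitochondria-specific protein of the large subunit, rose almost as much. It spans bases 81264713 to 81266934 of chromosome 10 (minus strand), and stood at 119, 114 and 109 FPKM with IL-33, against 52.9, 54.2 and 61.7 FPKM with PBS. The groups were far apart, with a log2 change of 1.01 (SE 0.08, limma adjusted p = 0.000235). Apba3, an adaptor gene whose start lies 26 bases from that of Mrpl54 on the other strand, averaged 9.82 ± 1.02 FPKM with IL-33 and 7.78 ± 0.20 FPKM with PBS (log2 change 0.30, limma adjusted p = 0.0242). The call of Apba3 was lost with equal totals (log2 change -0.01), with both corrections for length and GC content, and without IL-33 replicate 1 or 2 or PBS replicate 2 or 3.

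The next largest rises of the large subunit were those of Mrpl34, Mrpl23, Mrpl27, Mrpl20 and Mrpl43. The first 4 have bacterial counterparts. The tail of bacterial L27 reaches the site where peptide bonds form, L20 binds ribosomal RNA early in assembly, and L23 lies at the exit of the tunnel. Mrpl34 averaged 43.4 ± 6.99 FPKM with IL-33 and 24.4 ± 2.74 FPKM with PBS (log2 change 0.80, SE 0.13). Mrpl23 averaged 85.8 ± 9.59 FPKM with IL-33 and 50.7 ± 9.05 FPKM with PBS (log2 change 0.76, SE 0.13). Its lowest IL-33 library (79.96 FPKM) was above its highest PBS library (61.0 FPKM). Mrpl27 and Mrpl20 changed by 0.73 (SE 0.10) and 0.73 (SE 0.08). Mrpl43, a mitochondria-specific protein, varied least between replicates among these, at 47.2, 49.7 and 47.0 FPKM with IL-33, against 29.4, 27.9 and 29.4 FPKM with PBS (log2 change 0.71, SE 0.06, limma adjusted p = 0.00032). Mrpl43 overlaps the mitochondrial helicase gene Twnk on the other strand, which the tables list as Peo1, at 3.90 ± 0.31 FPKM with IL-33 and 4.27 ± 0.47 FPKM with PBS. The limma adjusted p of these 5 genes lay between 0.00032 and 0.00335.

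Mrpl12, the counterpart of the bacterial stalk protein L7/L12, is also reported to bind the mitochondrial RNA polymerase. It stood at 73.0, 61.9 and 60.4 FPKM with IL-33, against 41.1, 40.9 and 45.5 FPKM with PBS. The groups did not overlap (log2 change 0.60, SE 0.09, limma adjusted p = 0.00185). Mrpl10, whose bacterial counterpart carries L7/L12 on the ribosome, averaged 29.7 ± 2.00 FPKM with IL-33 and 25.3 ± 1.97 FPKM with PBS, with a log2 change of 0.23 that missed the threshold (SE 0.08, limma adjusted p = 0.053). Mrpl11, whose counterpart forms the base of that stalk, averaged 10.2 ± 0.82 FPKM with IL-33 and 7.49 ± 0.19 FPKM with PBS (log2 change 0.40, SE 0.08, limma adjusted p = 0.00545). Mrpl45, which lies at the tunnel exit and tethers the ribosome to the inner membrane, rose by 0.56 (SE 0.08), and Mrpl44, a protein of the RNase III fold, rose by 0.58 (SE 0.09).

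The most abundant members changed too. Mrps21 and Mrpl52 both averaged 194 FPKM over the 6 libraries and Mrpl33 191 FPKM, against a median of 27.5 FPKM over the members, and Mrpl17 was lowest at 4.80 FPKM. Mrps21 stood at 272, 245 and 206 FPKM with IL-33, against 136, 149 and 157 FPKM with PBS (log2 change 0.70, SE 0.11, limma adjusted p = 0.00223). Its call was lost after correction for length and GC content. Mrpl33 averaged 234 ± 31.0 FPKM with IL-33 and 148 ± 19.6 FPKM with PBS (log2 change 0.66, SE 0.13). Mrpl52 averaged 226 ± 5.64 FPKM with IL-33 and 162 ± 15.4 FPKM with PBS (log2 change 0.48, SE 0.08), and its call was lost with equal totals, quantile normalization, cyclic loess or either correction for length and GC content. Mrpl17, at the other end of the range, rose by 0.65 (SE 0.10), with levels of 6.77, 5.79 and 5.69 FPKM with IL-33 and 3.41, 3.88 and 3.27 FPKM with PBS.

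Other rises of the small subunit were those of Mrps33, Mrps16 and Mrps11. Mrps33 averaged 59.2 ± 1.6 FPKM with IL-33 and 38.9 ± 3.87 FPKM with PBS (log2 change 0.60, SE 0.08). Mrps16 averaged 111 ± 9.26 FPKM with IL-33 and 74.2 ± 6.98 FPKM with PBS (log2 change 0.58, SE 0.09). Mrps11, a platform protein, rose by 0.54 (SE 0.12), a call lost with equal totals and with either correction for length and GC content. Mrps11 overlaps Mrpl46 at their starts on opposite strands, and Mrpl46 rose by 0.49 (SE 0.12). Mrps12, whose bacterial counterpart lines the decoding centre, averaged 34.7 ± 3.17 FPKM with IL-33 and 25.6 ± 1.83 FPKM with PBS (log2 change 0.42, SE 0.09).

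The 3 Mrps symbols that are not part of the small subunit differed among themselves. Mrps36 of the 2-oxoglutarate dehydrogenase complex stood at 49.8, 38.6 and 43.6 FPKM with IL-33, against 24.7, 26.3 and 27.7 FPKM with PBS (log2 change 0.72, SE 0.10, limma adjusted p = 0.00145). The enzyme subunits of that complex, named because of this result, had smaller changes. Ogdh did not pass (log2 change 0.06), and Dlst and Dld passed at 0.20 and 0.18, calls that were lost with equal totals and in each fit without 1 IL-33 library. Mrps18a of the large subunit averaged 36.4 ± 4.34 FPKM with IL-33 and 28.1 ± 2.98 FPKM with PBS (log2 change 0.36, SE 0.11, limma adjusted p = 0.0294). Its call held in 9 of the 20 alternatives, and those that lost it included equal totals and the fits that left out IL-33 replicate 1, IL-33 replicate 2, PBS replicate 1 and PBS replicate 2. Mrps30, also of the large subunit, averaged 21 ± 1.62 FPKM with IL-33 and 18.4 ± 1.25 FPKM with PBS, and did not pass (log2 change 0.18, SE 0.08, limma adjusted p = 0.102), with -0.14 at equal totals.

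Among the 20 members that did not pass, 5 had a negative change, and these were the same 5 that were lower with equal totals. Mrps31, a mitochondria-specific protein, stood at 8.56, 7.57 and 6.40 FPKM with IL-33, against 8.31, 8.95 and 9.20 FPKM with PBS, groups that overlapped (log2 change -0.21, SE 0.11, limma adjusted p = 0.127). Mrps25 averaged 10.4 ± 0.21 FPKM with IL-33 and 11.2 ± 0.25 FPKM with PBS (log2 change -0.09, SE 0.06, limma adjusted p = 0.265), and it was called higher with the corrections for length and GC content, by 0.18 and 0.30, so that its direction turned with the scaling. Mrps2 and Mrps5, counterparts of bacterial S2 and S5, and Mrpl47, the counterpart of L29, had changes of -0.08, -0.06 and -0.03. These 5 genes were chosen for their sign, after their values were seen.

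**Figure D3:**
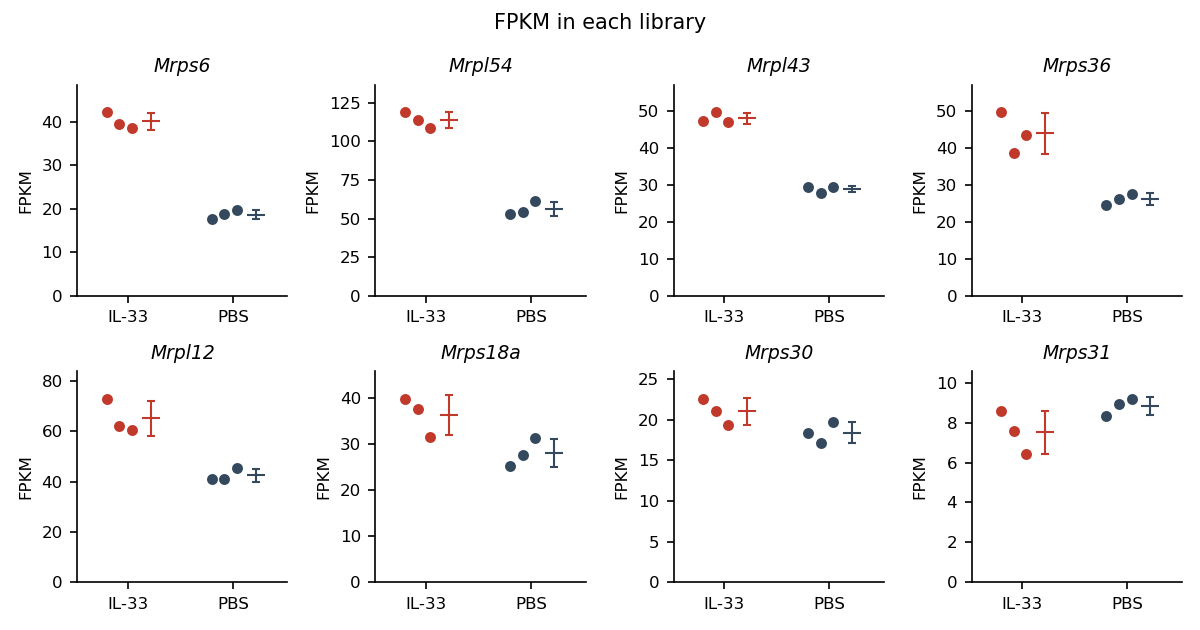
FPKM of 8 members in each library, IL-33 left and PBS right in each panel; points are libraries (replicates 1 to 3 from left to right), and the dash with bars is the mean ± SD. The IL-33 and PBS libraries are separate for Mrps6, Mrpl54, Mrpl43, Mrps36, Mrpl12 and Mrps18a, and overlap for Mrps30 and Mrps31.

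Other parts of the mitochondrial translation system are given below beside the 28.0% of all tested genes that were higher and the 25.5% that were lower. Of the 6 tested mitoribosomal proteins that go by other symbols 4 rose and 1 fell (median log2 change 0.32). Aurkaip1, a small subunit protein, averaged 69.3 ± 9.47 FPKM with IL-33 and 38.7 ± 2.92 FPKM with PBS (log2 change 0.82, SE 0.11). Gadd45gip1 of the large subunit rose by 0.36 (SE 0.09), a call lost with equal totals, with correction for length and GC content and without PBS replicate 2. Ptcd3, an RNA-binding pentatricopeptide protein of the small subunit, stood at 11.5, 11.6 and 11.3 FPKM with IL-33, against 17.1, 16.4 and 15.8 FPKM with PBS. It fell by 0.48 (SE 0.07, limma adjusted p = 0.00133).

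Genes of mitoribosome assembly had 4 higher and 5 lower of 26 tested (median log2 change -0.02), and 2 higher and 12 lower with equal totals. The pseudouridine synthase gene Rpusd4 averaged 29.0 ± 0.98 FPKM with IL-33 and 17.2 ± 1.3 FPKM with PBS (log2 change 0.72, SE 0.07), and Mpv17l2 rose by 0.73 (SE 0.12). The helicase gene Dhx30 averaged 14.8 ± 0.09 FPKM with IL-33 and 19.9 ± 1.72 FPKM with PBS (log2 change -0.40, SE 0.08). Mitochondrial translation factors had 4 higher and 0 lower of 17 tested in limma (4 and 1 at an unadjusted p of 0.05), with a median of -0.01. They had 2 higher and 9 lower with equal totals, and 5 higher and 4 lower after correction for length and GC content, so that the counts depended on the scaling. The 3 with the smallest adjusted p were Oxa1l, which inserts new proteins into the inner membrane (log2 change 0.64, SE 0.07), the RNA-stabilising factor Slirp (0.63, SE 0.10) and the elongation factor Tufm (0.49, SE 0.07), whose call was lost with equal totals. Elongation factor Gfm1 and initiation factor Mtif2, named after their values were seen, did not pass, at -0.11 and -0.22.

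Genes of mitochondrial DNA maintenance and transcription had 0 higher and 3 lower of 15 tested in limma, the same counts at an unadjusted p of 0.05 (median log2 change -0.07), and 0 higher and 11 lower with equal totals, where 50.9% of all genes were lower. Polrmt, the mitochondrial RNA polymerase, averaged 4.62 ± 0.35 FPKM with IL-33 and 6.26 ± 0.45 FPKM with PBS (log2 change -0.37, SE 0.09, limma adjusted p = 0.011), a call lost with cyclic loess. The DNA polymerase gene Polg fell by 0.38 (SE 0.10), a call lost with correction for length and GC content and without IL-33 replicate 3. Fastkd5, an RNA-processing factor, fell by 0.42 (SE 0.10). Transcriptional regulators of mitochondrial biogenesis had 4 higher and 3 lower of 13 tested (median -0.09), shares near the background. They had 0 higher and 8 lower with equal totals, and 1 higher and 4 lower after quantile normalization. Myc averaged 46.2 ± 2.43 FPKM with IL-33 and 32 ± 5.54 FPKM with PBS (log2 change 0.53, SE 0.12), a call lost with equal totals and quantile normalization. Hcfc1, a cofactor of several such regulators, fell by 0.60 (SE 0.09). Gabpb2, a subunit of the ETS-type factor GABP, fell by 0.55 (SE 0.13), a call lost with both corrections for length and GC content. Nrf1 (log2 change -0.21), Gabpa (-0.21) and Yy1 (-0.09), named for the motifs below, did not pass. Ppargc1a, the best known coactivator of this programme, averaged 0.05 FPKM with IL-33 and 0.21 FPKM with PBS and was not tested.

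The mitochondrial protein import list had 15 of 26 genes higher and 0 lower in limma (also 15 and 0 at an unadjusted p of 0.05), with a median log2 change of 0.30. Timm8b rose by 0.73 (SE 0.10), Tomm22 by 0.61 (SE 0.07) and Tomm20 by 0.56 (SE 0.07). Other large complexes rose as well. Of 84 tested proteins of the cytosolic ribosome 77 were higher and 0 lower (median 0.52, and 78 and 1 at an unadjusted p of 0.05), and of 36 tested subunits of respiratory complex I 34 were higher and 0 lower (median 0.59, and 34 and 0 unadjusted). With equal totals import had 6 higher and 7 lower, the cytosolic ribosome 52 higher and 1 lower, and complex I 22 higher and 1 lower, with medians of -0.03, 0.17 and 0.25 against -0.29 for all genes. After quantile normalization 14 cytosolic ribosomal protein genes were higher and 1 lower (median 0.06), and after correction for length and GC content 48 were higher and 1 lower. Per 100 FPKM of cytosolic ribosomal protein transcripts the members held 1.70, 1.74 and 1.64 FPKM with IL-33 and 1.69, 1.69 and 1.79 FPKM with PBS. These values overlapped, so that the ratio between both ribosomes' transcripts did not separate the groups. The lists differ in transcript length, with medians of 1849 bases for the members, 1100 for cytosolic ribosomal proteins, 1026 for complex I, 2440 for import, 2419 for assembly factors, 2623 for translation factors and 2784 for DNA maintenance. The part of length in the contrast between lists was not tested beyond the correction given above, under which the medians were 0.23 for the members, 0.20 for cytosolic ribosomal proteins, 0.23 for complex I, 0.10 for import, -0.10 for assembly factors, -0.02 for translation factors and -0.12 for DNA maintenance.

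**Figure D4:**
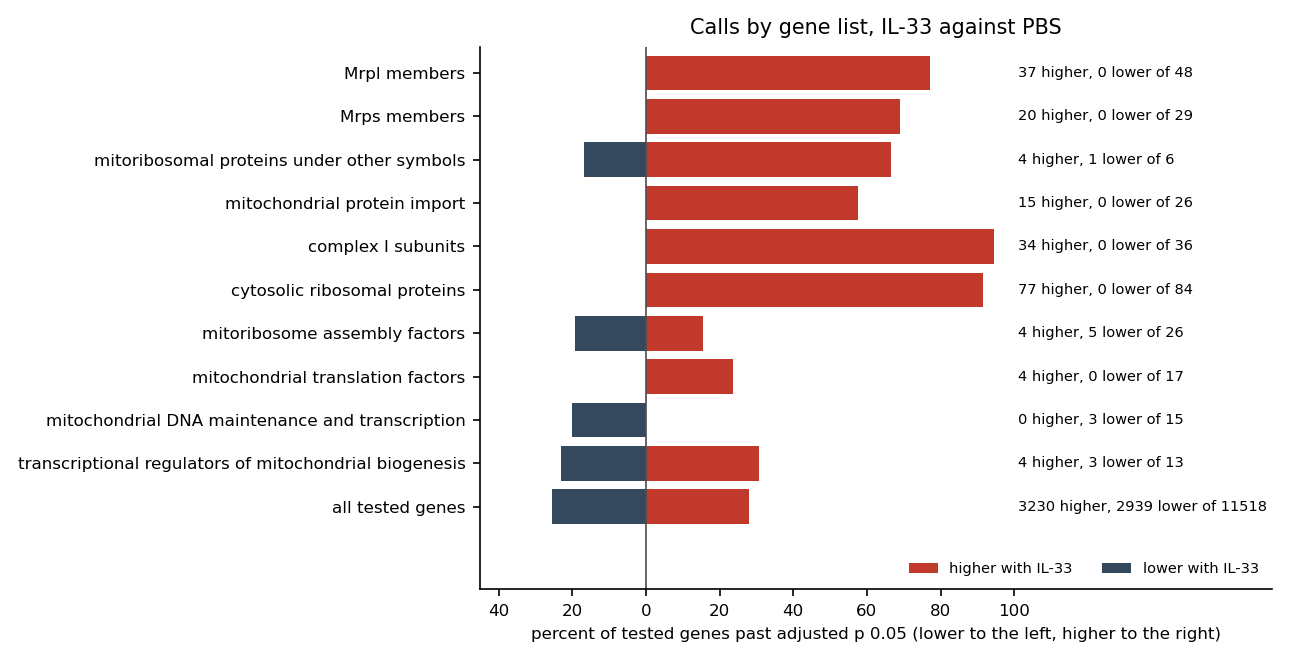
Percent of tested genes of each list that were higher (right) or lower (left) with IL-33 at an adjusted p of 0.05, with the counts beside the bars. Mrpl and Mrps genes, import, complex I, cytosolic ribosomal proteins and translation factors have 0 lower genes. Assembly factors have 5 lower of 26, DNA maintenance genes 3 of 15, transcriptional regulators 3 of 13 and mitoribosomal proteins under other symbols 1 of 6. Of all tested genes 25.5% were lower.

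Promoters of the members were searched for 3 motifs that are textbook elements of nuclear genes for mitochondrial proteins. They were the NRF1 site as GCGC, any base and then TGCGC, the ETS site bound by GABP as CCGGAAGT and the YY1 site as AAGATGGC, on both strands. RefSeq windows (GRCm38.p6) of 250 bases before to 50 bases after a start were found for 68 members, in 74 windows. The NRF1 letters were in 17.6% of these windows, against 10.2% of the windows of tested genes and 4.60% of all windows. The ETS letters were in 16.2%, against 8.28% and 3.89%. The YY1 letters were in 16.2%, against 4.67% and 2.75%. In all 34 of the 68 members held at least 1 of the 3. Of the 13 members with the NRF1 letters 12 rose (median log2 change 0.56), against 39 of the 55 without them (0.38). For the ETS letters the counts were 9 of 12 (0.45) against 42 of 56 without (0.41), and for the YY1 letters 8 of 12 (0.42) against 43 of 56 without (0.41). These are counts of letters, given as a description.

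In 8 members the YY1 letters lay on the gene's own strand just after the start, with their first base between positions 12 and 37 counted from 1 at the start. These are printed from 10 bases before to 50 bases after the start, with the motif in capitals, because of this shared place. The motif contains ATG, the letters of a translation start codon. Whether these stretches hold the start codon of their gene was not tested. Of the 8 genes Mrpl42, Mrps7, Mrps18a and Mrps24 rose, and Mrpl35, Mrpl37, Mrpl49 and Mrps27 did not pass. The windows are at chr6:71823735-71823794 (minus strand), chr4:107066817-107066876 (minus), chr10:95501900-95501959 (minus), chr19:6057706-6057765 (minus), chr17:46110994-46111053 (plus), chr11:5707652-5707711 (minus), chr13:99344776-99344835 (plus) and chr11:115604130-115604189 (plus), in the order of the lines.
Mrpl35: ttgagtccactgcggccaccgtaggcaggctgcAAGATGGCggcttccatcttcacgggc
Mrpl37: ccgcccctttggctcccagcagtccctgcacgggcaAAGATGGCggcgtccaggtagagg
Mrpl42: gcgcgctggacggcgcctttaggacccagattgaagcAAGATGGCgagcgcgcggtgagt
Mrpl49: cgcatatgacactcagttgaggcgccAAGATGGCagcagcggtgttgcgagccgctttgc
Mrps18a: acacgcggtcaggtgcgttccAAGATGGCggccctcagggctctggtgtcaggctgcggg
Mrps24: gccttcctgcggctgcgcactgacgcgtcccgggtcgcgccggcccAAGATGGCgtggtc
Mrps27: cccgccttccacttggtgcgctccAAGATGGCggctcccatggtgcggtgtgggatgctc
Mrps7: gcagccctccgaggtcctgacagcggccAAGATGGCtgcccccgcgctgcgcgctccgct

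The ETS letters lay before the start in Mrpl27 and Mrpl43, and the NRF1 letters in Mrpl12 and Mrps21, which are members with large rises described above. Other members with the same letters did not pass, namely Mrpl3, Mrps22 and Mrps27 for ETS and Mrpl39 for NRF1. The windows of Mrpl27, Mrpl43, Mrpl12 and Mrps21 run from 100 bases before to 20 bases after the start, with the motif in capitals. They are at chr11:94653691-94653810 (plus strand), chr19:45006423-45006542 (minus), chr11:120484537-120484656 (plus) and chr3:95871495-95871614 (minus), in the order of the lines.
Mrpl27: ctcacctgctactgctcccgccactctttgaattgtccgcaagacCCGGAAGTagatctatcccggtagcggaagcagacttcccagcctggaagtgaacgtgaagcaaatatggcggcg
Mrpl43: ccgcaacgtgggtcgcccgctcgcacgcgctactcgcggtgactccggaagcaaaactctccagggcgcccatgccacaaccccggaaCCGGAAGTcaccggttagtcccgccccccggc
Mrpl12: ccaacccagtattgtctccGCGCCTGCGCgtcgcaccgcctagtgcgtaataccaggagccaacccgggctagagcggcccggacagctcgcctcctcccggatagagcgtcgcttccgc
Mrps21: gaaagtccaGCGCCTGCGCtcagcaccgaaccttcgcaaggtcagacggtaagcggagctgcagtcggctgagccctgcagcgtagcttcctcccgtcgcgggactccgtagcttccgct

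Some members start close to another gene, and the share over all genes was not counted. In GENCODE M21, 23 of the 77 stood head to head with a protein-coding gene, meaning that the partner starts on the other strand at most 1000 bases before the member's start or at most 200 bases inside it. Counting starts up to 1000 bases inside as well, as for Mrps11 and Mrpl46, gave 33. Of the 22 tested partners 7 were higher and 3 lower, with a median log2 change of -0.01, against 28.0% and 25.5% of all tested genes, and with equal totals 2 were higher and 10 lower. Some pairs moved the same way. Mrpl32 rose by 0.50 and its partner Psma2, a proteasome subunit gene, by 0.37, with starts 75 bases apart, and Mrpl36 rose by 0.43 and the complex I subunit gene Ndufs6 by 0.47, with starts 29 bases apart. All 4 calls were lost with equal totals. Those of Mrpl36 (0.03) and Ndufs6 (0.05) were also lost with correction for length and GC content by the longest transcript. Quantile normalization and cyclic loess each took the calls of Psma2 and Ndufs6, and that of Mrpl36 held in 10 of the 20 alternatives. Other pairs moved apart. Mrps18b rose by 0.49 (SE 0.08) while Ppp1r10, a regulator of protein phosphatase 1, fell by 0.95 (SE 0.09), with starts 45 bases apart, and Ppp1r10 stood at 8.98, 9.07 and 10.5 FPKM with IL-33, against 19, 20.6 and 18.1 FPKM with PBS. Mrps18c rose by 0.38 while the helicase gene Helq, 29 bases away, fell by 0.46, and Mrps7 rose by 0.45 while Gga3, 126 bases away, fell by 0.34. The calls of Mrps18b, Mrps18c and Mrps7 were lost with equal totals. Those of Mrps18b (0.11) and Mrps18c (0.002) were also lost with correction for length and GC content by the longest transcript. Gga3 lost its call with both corrections for length and GC content and without IL-33 replicate 1 or PBS replicate 2. These pairs were chosen after their values were seen. In all 23 members overlapped a protein-coding gene on the other strand and 4 on the same strand, and since the authors' use of strand is not given in the sources used here, fragments of such genes cannot be told apart with certainty. Processed pseudogene copies of members could share fragments in the same way.

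The sorted cells were not of 1 kind, and markers of other cell types moved with the groups. Summed FPKM of 8 T cell markers was 111 to 119 in IL-33 libraries and 247 to 433 in PBS libraries (8 of 8 tested lower), and of 8 natural killer cell markers 140 to 185 and 343 to 449 (7 of 8 lower). Summed FPKM of 7 plasma cell markers was 408 to 438 in IL-33 libraries and 131 to 178 in PBS libraries (6 of 7 higher), of 8 eosinophil markers 870 to 1238 and 216 to 310 (6 of 8 higher), and of 8 neutrophil markers 1213 to 2449 and 473 to 782 (7 of 7 higher). Most of each eosinophil sum came from Ear2, at 773 FPKM with IL-33 and 216 FPKM with PBS. The eosinophil markers Ccr3 and Il5ra did not pass, with log2 changes of 0.01 and -0.21. B cell markers overlapped, at 355 to 480 with IL-33 and 321 to 779 with PBS (3 of 8 lower). Of 10 dendritic cell markers, with sums of 21645 to 23402 FPKM with IL-33 and 14738 to 15538 FPKM with PBS, 4 rose and 5 fell (Flt3, Zbtb46, Xcr1, Clec9a and Siglech). Most of each sum came from Cd74, at 13977 FPKM with IL-33 and 9741 FPKM with PBS, and H2-Ab1, at 7511 FPKM with IL-33 and 4643 FPKM with PBS, both genes of class II antigen presentation. Itgax, which encodes CD11c, averaged 283 FPKM with IL-33 and 241 FPKM with PBS (log2 change 0.23, a call lost with equal totals, -0.11). Of 12 proliferation markers 8 rose and 0 fell in limma (9 and 0 at an unadjusted p of 0.05), with sums of 459 to 505 FPKM with IL-33 and 301 to 412 FPKM with PBS, although Mki67 itself did not pass (log2 change -0.04). No marker of these lists that the tables hold was at 0 in every library, and Epx, Ear1, Ear6 and Elane were at 0 in at least 1. The part of cell composition or proliferation in the members' change was not tested, and in bulk RNA fewer cells of a type and less RNA per cell cannot be told apart.

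Leaving out any 1 library left 48 to 55 members higher and 0 lower. IL-33 replicate 1 held the highest of the 3 IL-33 values for 53 of the 77 members, and PBS replicate 3 the highest of the 3 PBS values for 47. Without IL-33 replicate 1, 48 members rose, and without PBS replicate 3, 54 rose. Of the 57 members that rose, 47 did so in each of the 6 fits with 1 library left out, and 18 under every one of the 20 alternatives tried, of which 13 were Mrpl and 5 Mrps genes. These 18 were, in order of their change, Mrps6, Mrpl54, Mrpl34, Mrpl23, Mrpl27, Mrpl20, Mrps36, Mrpl43, Mrpl33, Mrpl17, Mrpl12, Mrps33, Mrps16, Mrpl44, Mrpl30, Mrpl45, Mrps23 and Mrpl48.

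**Figure D5:**
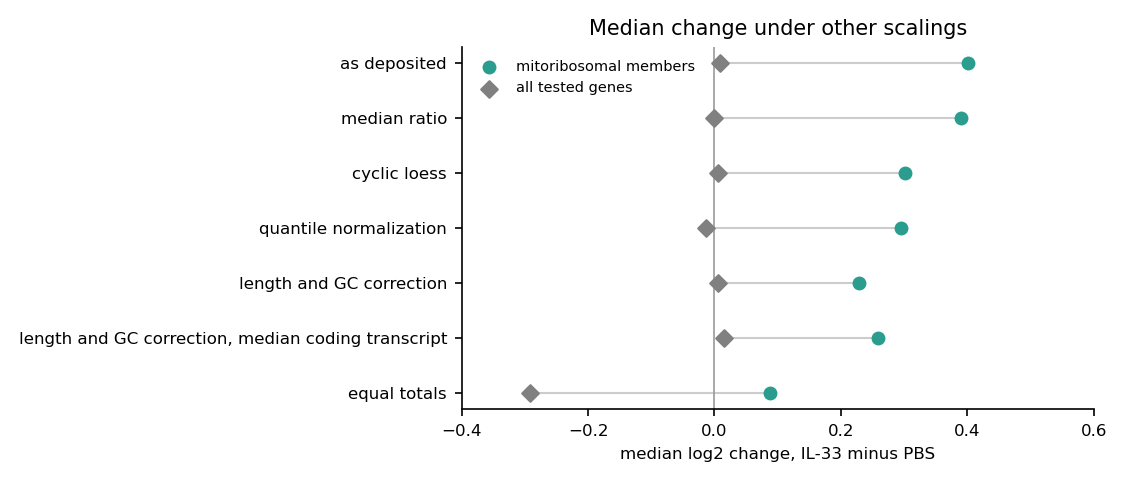
Median log2 change (IL-33 minus PBS) of the 77 members (circles) and of all tested genes (diamonds) as deposited and under 6 other scalings or corrections. The members' median lies between 0.09 (equal totals) and 0.40 (as deposited) and above that of all tested genes in each line.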

How the data were processed

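Total RNA was treated with DNase and made into libraries with a kit for stranded mRNA, per the labels' protocols, for 3 IL-33 and 3 PBS samples. The authors deposited 1 table of FPKM values per library. Per the submitters' processing notes, the tools were Cuffnorm 2.2.1, TopHat2 2.0.13, SAMtools 0.1.19 and Bowtie2 2.2.3, with build mm10. The sources used here do not give the annotation, the scaling between libraries or whether counting used strand. FPKM has no counts, so the absolute depth is unknown, and relative depth was read from steps between values of at most 0.3 FPKM.

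Values were fitted as log2(FPKM + 1) with limma 3.58.1 (R 4.3.3), a variance trend, 1 term for treatment and no block, two-sided. The fit was tested on simulated data. The pseudocount understates changes of low genes. Members, lists, alternatives and tests were chosen with earlier results of these data known. The rule for named genes took the 6 largest changes of each subunit past the threshold with separate groups, the 2 most abundant of each, Mrpl12, Mrps18a, Mrps30 and Mrps36, and the 3 smallest adjusted p of each pathway list. Other genes were named for their role or after their values were seen. Lists are described by counts and medians. Cytosolic ribosomal proteins were taken by symbol, without Rps6k kinases and Rps19bp1. Lengths, GC content and positions are from GENCODE M21 (GRCm38, the assembly of mm10), with a length for 11090 (96.3%) of 11518 tested genes. The longest annotated transcript may not be the one expressed. The groups share replicate numbers in the labels, which were not taken to pair libraries. Tables and figures used Python 3.11.15, pandas 2.3.3 and matplotlib 3.10.9.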

Additional observations from a re-analysis of the deposited data

How the results depend on the processing

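Of 19 alternatives listed at the start and 1 chosen after seeing the data (the median coding transcript), equal totals moved the members' counts most. With equal totals 1272 genes were higher and 5886 lower, against 3230 and 2939 as deposited, 20 members were higher and 5 lower, 14 Mrpl and 6 Mrps genes were higher, and the median change was 0.088 for members, 0.089 for Mrpl and 0.049 for Mrps genes. With correction for length and GC content 36 members were higher and 2 lower, 22 Mrpl genes were higher, and these medians were 0.23, 0.26 and 0.20. They were 0.26, 0.28 and 0.25 with the median coding transcript, 0.30, 0.32 and 0.28 with cyclic loess and 0.29, 0.31 and 0.26 after quantile normalization. A pseudocount of 5 gave a median of 0.36 for members. With 1 library left out that median lay between 0.36 and 0.45. Filters, variance settings, library weights and the median ratio kept the members' counts between 55 and 60 higher and 0 lower. The cause of these shifts was not tested. The mean change of Mrpl minus Mrps genes stayed between 0.05 and 0.08. Same-numbered libraries of the groups did not deviate together (correlations of deviations 0.07, -0.05 and 0.09), and with the replicate block 50 members were higher, 33 of them Mrpl and 17 Mrps genes, and 0 lower. Direction turned for some members that rose as deposited, though none of these was called lower. With equal totals these were Mrpl13, Mrpl16, Mrpl21, Mrpl22, Mrpl24, Mrpl50, Mrps17 and Mrps35, between -0.10 and -0.006. With correction for length and GC content by the longest transcript they were Mrpl21, Mrpl22, Mrpl24, Mrpl41 and Mrpl55, between -0.18 and -0.034. Among members that did not pass as deposited, direction turned for Mrps30 with equal totals (-0.14, not called) and for others. Mrps25 was 0.18 and 0.30 with the corrections for length and GC content by the longest and by the median coding transcript, both called higher. Mrps28 was -0.25 with equal totals, -0.36 (called lower) and -0.18 with those corrections, and between -0.018 (without IL-33 replicate 1) and 0.14 with 1 library left out. Mrps5 was 0.068 with correction by the longest transcript and between -0.13 and 0.047 (without PBS replicate 1) with 1 library left out. Mrpl47 was 0.027 after quantile normalization, 0.050 with cyclic loess, 0.14 with the median coding transcript, and between -0.13 and 0.072 (without IL-33 replicate 2) with 1 library left out. Depth cannot be given in fragments, which limits what can be said of genes near 1 FPKM.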
